A study of Mus musculus with 186 samples.

Results

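The constructs described here are 17 designed promoter sequences built on the mouse Pwp2 promoter, in which a large part of the native sequence was replaced, or a background sequence stood in its place, without and with added CpGs. In the first library (Pwp2lib5), all 11 constructs whose names start with allmut were taken, of 23 constructs in the library. In the second library (Pwp2lib3), the 6 constructs named Pwp2_BackGr, Pwp2_allImpMotifs and Pwp2_allMotifs, each without and with added CpGs (ending CG), were taken, of 34. The constructs were chosen by name and design and not by their activity.

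All cells were TC-1 mouse embryonic stem cells (ESCs) that carry a recombination site in the beta-globin locus, so that every cell received 1 construct at the same genomic position. Wild-type cells were compared with TKO cells, which were made from the same line and lack the DNA methyltransferases Dnmt1, Dnmt3a and Dnmt3b. The TKO cells therefore differ from the wild-type cells by 3 deleted genes and by being a derived line, and the cells of both lines carry the same recombination site. Each library was measured by TrAC-seq in 3 replicates per cell line, which pairs the RNA and genomic DNA reads of the barcodes (BCs) that mark a construct. The labels do not say that the replicates are separate cultures, so that the p-values measure only the spread between these samples. In the limma fits that spread is shared, partly or fully, over all constructs tested.

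CpG islands are stretches of DNA rich in the dinucleotide CpG, and most mammalian promoters of broadly expressed genes lie in one. Elsewhere in the genome CpGs are mostly methylated and have become rare, whereas in active CpG islands they stay unmethylated. Pwp2 codes for a protein of the complex that processes the small ribosomal subunit RNA. Its promoter is a CpG island promoter, in which the study located motifs of GABPA, SP1, NRF1 and MYC. GABPA is an ETS family factor, SP1 is a zinc finger factor of GC-rich boxes and NRF1 is a factor of housekeeping promoters whose binding is blocked by methylation of its motif.

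The native insert is the sequence from which the constructs were derived, and it lies on the minus strand of mm9 at chr10:77647729-77648156. Of its 428 bp, 262 bp lie upstream of the annotated start of Pwp2, 61 bp are 5′ UTR, 18 bp are coding sequence of the first exon and 87 bp belong to the first intron. The insert holds 37 CpGs and the measured construct of 457 bp holds 39, so that 2 CpGs lie in the flanks that all constructs share. The stretch upstream of the start, chr10:77647895-77648156, is shown because it holds 19 of the native CpGs, given in capitals. It also holds 5 of the 7 motifs of GABPA, SP1 and NRF1 whose positions are known from construct names.
Pwp2 promoter: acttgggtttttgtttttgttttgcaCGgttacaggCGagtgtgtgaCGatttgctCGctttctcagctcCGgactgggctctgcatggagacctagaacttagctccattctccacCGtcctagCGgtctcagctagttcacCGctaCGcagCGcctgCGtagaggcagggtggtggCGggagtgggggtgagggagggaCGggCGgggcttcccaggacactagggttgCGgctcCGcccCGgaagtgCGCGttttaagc

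The motifs below are shown because mutants of the motif library are named for them. It is not stated whether Pwp2_allMotifs and Pwp2_allImpMotifs hold these motifs. The motif positions come from the names of the mutants, with the insert starting after base 14 of the construct. A shift of 1 base either way would fit the numbers of CpGs equally well. The mutant named for MYC gives no position, and MYC motifs are not shown. Capitals mark CpGs.
GABPA, chr10:77648010-77648018: ttcacCGct
NRF1, chr10:77647994-77648004: gCGcctgCGta
SP1, chr10:77647946-77647955: CGggCGgggc
SP1, chr10:77647914-77647923: gctcCGcccc
GABPA, chr10:77647907-77647916: ccCGgaagtg
NRF1, chr10:77647887-77647896: gCGcCGgaga
The second SP1 motif overlaps the GABPA motif next to it. All but the last of these lie upstream of the start, the last spans it, and 1 further NRF1 motif lies in the intron. That intron motif, chr10:77647792-77647801, is also named by a mutant but is not shown, and it holds 0 CpGs. Every motif shown, unlike that in the intron, holds at least 1 CpG itself, so a construct that held a motif shown would also gain CpGs from it.

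In the 11 constructs named allmut, the 10-bp blocks of the promoter that mattered little or not at all for activity had been exchanged by the study for random sequence without CpGs. The study chose these blocks on the activity of 10-bp mutants from another library. The basic construct allmut holds 19 CpGs, 17 of them outside the flanks. CpGs were then added to the replaced blocks at native positions. Of these constructs, 3 received 4 CpGs each (23 in all), 3 received 10 (29 in all), 3 received 16 (35 in all), and 1, allmutallCGadded, received all 20 (39 in all, as many as the WT construct). Constructs with the same number differ in which CpGs were added. Normalized CpG density, the ratio of observed over expected CpGs (OE), rose from 0.595 in allmut to 1.03 in allmutallCGadded. The G+C content rose with it, from 53.6% to 58.2%, and the 2 measures correlated over the 11 constructs with r = 0.98, so that added CpGs and added G+C cannot be told apart.

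Activities are given in percent of the WT construct of the same library, cell line and replicate. The authors added 0.05 to the enrichment of each BC, so that no construct can fall below an activity of 0.05. That lowest measurable activity corresponded to 3.76% to 5.87% of WT in wild-type cells and to 4.71% to 6.26% in TKO cells for the first library. A replicate within 0.5 (log2) of it is called near the lowest measurable value here. In wild-type cells the allmut constructs were read from 9 to 111 BCs each in replicate 1, but from 3 to 16 in replicate 2 and 3 to 18 in replicate 3. In TKO cells the constructs that were measured had 3 to 13 BCs. The construct allmut_CG_10.2 had 2, 1 and 2 BCs in TKO cells and was not measured there.

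Without added CpGs, the replaced promoter was almost silent in both cell lines. Activity of allmut was 9.11%, 4.97% and 5.52% of WT in the 3 wild-type replicates and 5.14%, 6.46% and 6.66% in the 3 TKO replicates. It was near the lowest measurable value in 2 of the 3 wild-type and in all 3 TKO replicates. On the log2 scale it was lower than WT by -3.99 ± 0.21 (SE, n = 3, adjusted p = 2.77e-16, limma) in wild-type cells and by -4.05 ± 0.17 (SE, n = 3, adjusted p = 1.07e-08, limma) in TKO cells. Pwp2_BackGr, which holds only the 2 CpGs of the flanks, was measured in the same library at 6.74%, 4.34% and 5.0% of WT in wild-type cells. It differed from allmut by -0.26 (95% confidence interval -0.66 to 0.14, adjusted p = 0.20, limma) in wild-type and by -0.16 (-0.52 to 0.20, adjusted p = 0.373) in TKO cells, and with both constructs so close to the lowest measurable value a difference was not detectable.

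The native sequence with the same number of CpGs behaved differently. In allCGmutWT the native sequence was kept and CpGs were mutated in it, which also leaves 19 CpGs. Its activity was 83%, 58.3% and 67.2% of WT in wild-type cells and 42.7%, 55.6% and 49.1% in TKO cells, and no replicate overlapped with those of allmut. The replaced construct was lower than this native counterpart by -3.45 ± 0.17 (SE, log2, n = 3, adjusted p = 8.87e-07 over all pairs of constructs, limma) in wild-type cells, a difference of 10.9-fold, and by -3.01 ± 0.13 (adjusted p = 6.85e-06) in TKO cells. Its G+C content was 55.8% against 53.6% in allmut.

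Constructs with added CpGs were mostly more active than allmut. Against allmut, 9 of the 10 constructs with added CpGs were higher in wild-type cells, and all 9 that were measured were higher in TKO cells. In the same fits, 90.9% of all constructs tested in wild-type and 95.2% in TKO cells, these constructs included, were higher than allmut. This count therefore says little about these constructs beyond their rank above allmut. Only Pwp2_BackGr lay lower than allmut, by -0.26 in wild-type and -0.16 in TKO cells, and neither difference was called. The median change of the constructs with added CpGs was 1.91 (log2) in wild-type and 1.39 in TKO cells, against 3.27 and 3.01 over all constructs tested. The SE of each change was 0.20 in wild-type and 0.18 in TKO cells. It is the same for every construct because limma pooled the variance over all constructs tested.

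All constructs nevertheless stayed below WT. In wild-type cells, 11 of 11 were lower than the WT construct, where 68.2% of all constructs tested were lower, and in TKO cells 10 of 10 were lower, where 61.9% were. The median was -2.18 (log2) in wild-type and -2.93 in TKO cells, against -1.40 and -1.53 over all constructs.

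Among the constructs with 4 added CpGs, allmut_CG_4.1 stood apart. Its activity was 40.3%, 19% and 25.4% of WT in wild-type cells, from 10, 5 and 5 BCs. That of allmut_CG_4 was 16.2%, 6.21% and 9.22%, and that of allmut_CG_4.2 was 13.9%, 6.72% and 5.26%. Within each replicate allmut_CG_4.1 was the highest of the 3. In TKO cells the values were 9.38%, 24.5% and 17.3% for allmut_CG_4.1, 6.19%, 10.4% and 9.56% for allmut_CG_4, and 8.01%, 13.1% and 8.87% for allmut_CG_4.2, with 1 replicate of allmut_CG_4 near the lowest measurable value and again with allmut_CG_4.1 as the highest in each replicate. Against allmut, allmut_CG_4.1 was higher by 2.09 in wild-type (adjusted p = 2.19e-13, limma) and by 1.39 in TKO cells (adjusted p = 1.52e-09). For allmut_CG_4 the change was smaller, at 0.63 (adjusted p = 0.00302) and 0.49 (adjusted p = 0.00979), and without replicate 3 it missed the threshold in wild-type cells (0.58, adjusted p = 0.0618), as it did in TKO cells without replicate 2 (0.39, adjusted p = 0.0758) or replicate 3 (0.48, adjusted p = 0.0771). The third, allmut_CG_4.2, did not pass the test in wild-type cells at 0.32 (95% confidence interval -0.08 to 0.72, adjusted p = 0.116) and was higher in TKO cells by 0.69 (adjusted p = 0.000452). When replicates were weighted by their BCs, its change in wild-type cells was 0.51 (adjusted p = 0.0200).

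The 3 constructs with 10 added CpGs were intermediate in wild-type cells. Activity of allmut_CG_10 was 21.1%, 28.3% and 18% of WT, that of allmut_CG_10.1 was 18.3%, 15.0% and 11.4%, and that of allmut_CG_10.2 was 15.3%, 12.1% and 11.5%. In each replicate allmut_CG_10 was the highest of the 3. Their changes against allmut were 1.81 (adjusted p = 1.45e-11, limma), 1.21 (adjusted p = 2.76e-07) and 1.03 (adjusted p = 5.98e-06). In TKO cells allmut_CG_10 was at 7.85%, 8.22% and 8.30%, with 1 replicate near the lowest measurable value, and allmut_CG_10.1 at 10.2%, 11.7% and 10.8%. Here the order of both was turned around in every replicate. The change against allmut in TKO cells was 0.43 for allmut_CG_10 (adjusted p = 0.0232) and 0.85 for allmut_CG_10.1 (adjusted p = 3.15e-05), and that of allmut_CG_10 missed the threshold without replicate 1 (0.33, adjusted p = 0.181) and with weights by BCs (0.40, adjusted p = 0.0875).

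Of the constructs with 16 added CpGs, allmut_CG_16.2 stood out. In wild-type cells allmut_CG_16.2 reached 57.1%, 53.7% and 50.4% of WT, with an SD of 0.09 on the log2 scale (n = 3), the highest value of all allmut constructs in each replicate. The other 2 lay lower, at 32%, 21.3% and 27.9% for allmut_CG_16 and at 29.4%, 21.3% and 26.2% for allmut_CG_16.1. Against allmut the changes were 3.09 (adjusted p = 3.02e-19, limma), 2.08 (adjusted p = 2.31e-13) and 2.01 (adjusted p = 6.25e-13). In TKO cells allmut_CG_16.2 had 33.2%, 40.5% and 30.8%, allmut_CG_16 had 15.9%, 28.5% and 26.2%, and allmut_CG_16.1 had 27.9%, 37.1% and 16.5%. The changes against allmut were 2.52 (adjusted p = 3.07e-17), 1.91 (adjusted p = 2.01e-13) and 2.09 (adjusted p = 1.34e-14).

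Activity of allmutallCGadded was 29.6%, 18.9% and 30.7% of WT in wild-type cells and 22.8%, 36.1% and 27.5% in TKO cells. It was higher than allmut by 2.03 (adjusted p = 4.55e-13, limma) in wild-type and by 2.22 (adjusted p = 1.85e-15) in TKO cells. It was lower than allmut_CG_16.2, which has 4 CpGs fewer, by -1.06 ± 0.19 (SE, adjusted p = 0.00117) in wild-type cells, whereas in TKO cells the difference was -0.29 (95% confidence interval -0.66 to 0.08, adjusted p = 0.119). Against WT, which has the same 39 CpGs, it was lower by -1.95 ± 0.19 (adjusted p = 2.62e-05) and by -1.82 ± 0.17 (adjusted p = 0.000142).

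Constructs with equal numbers of CpGs thus differed among themselves. To test this, all pairs of constructs in the library were compared within replicates, a comparison added after the values had been seen. Of the 9 pairs of allmut constructs with the same number of CpGs, 6 differed in wild-type cells, and of 7 such pairs in TKO cells 4 differed, where 84.2% of all 253 pairs and 82.3% of all 231 pairs in the library did. Without replicate 2, only 1 of the 7 pairs in TKO cells was called. Among the native constructs with equal numbers, 2 of 9 pairs differed in either cell line. Their median absolute difference was 0.32 (log2) in wild-type cells against 0.78 for the allmut pairs, and 0.16 against 0.43 in TKO cells. The native constructs of these pairs had more BCs, 12 to 28 in wild-type replicates 2 and 3 against 3 to 12 for the allmut ones. Whether the allmut pairs differ more often than the native pairs was not tested. In wild-type cells allmut_CG_4.1 was higher than allmut_CG_4 by 1.46 (adjusted p = 4.82e-05, limma) and than allmut_CG_4.2 by 1.77 (adjusted p = 6.34e-05). Likewise allmut_CG_16.2 was higher than allmut_CG_16 by 1.01 (adjusted p = 0.000794) and than allmut_CG_16.1 by 1.08 (adjusted p = 0.000394), while allmut_CG_16 and allmut_CG_16.1 differed by only -0.07 (95% confidence interval -0.43 to 0.28, adjusted p = 0.675). In TKO cells allmut_CG_4.1 was higher than allmut_CG_4 by 0.90 (adjusted p = 0.00326) and allmut_CG_16.2 was higher than allmut_CG_16 by 0.60 (adjusted p = 0.0294), whereas its difference from allmut_CG_16.1 was 0.43 (-0.06 to 0.91, adjusted p = 0.0868) and was not called. The G+C content of allmut_CG_16.2 was 56.9%, the lowest of the 3, against 57.3% and 57.5%, and that of allmut_CG_4.1 was 54.5%, between 54.3% and 54.7%.

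Across the allmut constructs, activity rose with normalized CpG density. The mean Spearman correlation of log2 activity with OE was 0.77 ± 0.11 (SD, n = 3 replicates) over 11 constructs in wild-type cells and 0.77 ± 0.04 over 10 constructs in TKO cells, and the mean Pearson correlation was 0.75 ± 0.07 and 0.83 ± 0.06. The constructs share their kept blocks and their flanks, and the correlation is given as a description. With G+C content in place of OE, the mean Spearman correlation was 0.64 ± 0.11 in wild-type and 0.78 ± 0.09 in TKO cells. Each CpG went with a rise in log2 activity of 0.109 ± 0.027 (SD, n = 3) in wild-type cells and 0.110 ± 0.014 in TKO cells. These slopes overlapped between the cell lines (difference 0.00179, exact permutation test over the 6 replicates, two-sided p = 1.00, where 0.1 is the smallest p possible). The construct that was not measured in TKO cells has the mean number of CpGs, and leaving it out of wild-type cells does not move the slope.

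In the 11 constructs of the native series, which span the same numbers of CpGs, the slope per CpG was 0.0412 ± 0.0111 (log2, SD, n = 3) in wild-type and 0.0514 ± 0.0148 in TKO cells. It was steeper in the replaced context by 0.0674 ± 0.0162 in wild-type and by 0.0591 ± 0.0115 in TKO cells, in 3 of 3 replicates each (exact sign-flip test, two-sided p = 0.25, the smallest that 3 replicates allow). Accordingly, the distance between both contexts narrowed. With 19 CpGs the native construct was above the replaced one by 3.45 ± 0.23 (log2, SD, n = 3) in wild-type cells, with 23, 29 and 35 CpGs the means of the 3 native constructs were above those of the replaced ones by 2.74 ± 0.40, 2.81 ± 0.29 and 2.01 ± 0.07, and with 39 CpGs WT was above allmutallCGadded by 1.95 ± 0.39. In TKO cells these differences were 3.01 ± 0.12, 3.01 ± 0.15, 3.44 ± 0.31, 2.31 ± 0.16 and 1.82 ± 0.33, the value at 29 CpGs resting on 2 replaced constructs. The differences at the low end are limited by the lowest measurable activity, which allmut had nearly reached. In both contexts the construct with 39 CpGs was not the most active one, since the native constructs with 35 CpGs lay between 118% and 149% of WT in wild-type cells (geometric means of 3 replicates).

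Activities were then compared between the cell lines. Relative to WT, 1 of the 10 allmut constructs measured in both differed between TKO and wild-type cells, where 4.76% of all 21 constructs tested were lower in TKO cells, so that it was the only one called relative to WT. This construct was allmut_CG_10, which was lower in TKO cells by -1.44 ± 0.29 (SE, log2, n = 6, adjusted p = 6.33e-05, limma) and whose replicates did not overlap between the cell lines. Relative to allmut the difference was -1.38 ± 0.27 (adjusted p = 3.64e-05), again the only one and 4.76% of 21 constructs. The wild-type values of allmut_CG_10 rest on 38, 6 and 6 BCs and the TKO values on 3, 5 and 5. With weights by BCs the difference relative to allmut was -1.02 (adjusted p = 0.217), without replicate 2 it was -0.99 (adjusted p = 0.0536), and with at least 10 BCs required the construct could not be tested. Relative to the median construct of each replicate in place of WT, which shifted all differences by 0.54, it was -0.90 (adjusted p = 0.0212), and allmut_CG_4.2 (0.85) and allmutallCGadded (0.67) were then called higher in TKO cells (adjusted p = 0.0232 each). For allmut_CG_4.1 the difference relative to WT was -0.76 (95% confidence interval -1.34 to -0.18, adjusted p = 0.119) and for allmut_CG_16.2 it was -0.63 (-1.21 to -0.06, adjusted p = 0.21). The other 7 lay between -0.43 and 0.31, with adjusted p from 0.424 to 0.968, and their intervals reached up to 1.00 in size.

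In the motif library, 3 constructs and their counterparts with CpGs were read by name and composition, since the sources used here do not describe how they were built. Pwp2_BackGr, by its name the background sequence, holds no CpG outside the flanks. Pwp2_allImpMotifs and Pwp2_allMotifs, named for motifs, hold 7 and 12 CpGs besides the flanks, and which motifs each of them carries is not stated. Pwp2_BackGrCG has 37 CpGs more than its counterpart, Pwp2_allImpMotifsCG 31 and Pwp2_allMotifsCG 26, which brings these 3 to 39, 40 and 40 CpGs, close to the 39 of the WT construct, at an OE of 1.23, 1.14 and 1.09. As WT construct of this library served pwp2_0000_MycAw, to which the deposited relative activities are scaled and which has the base composition of the WT construct of the first library. Their G+C content rose from 44.6% to 53.2%, from 48.6% to 56% and from 51.6% to 57.3%, so that here too added CpGs cannot be told apart from the other bases that differ. The lowest measurable activity was 1.43% to 2.08% of WT in wild-type cells and 2.23% to 5.03% in TKO cells. In TKO replicate 1 the WT construct itself had an activity of 0.994, against 2.25 and 2.06 in the other 2, so that every TKO value in percent of WT is higher in replicate 1, and the values relative to a construct other than WT do not depend on it. The 6 constructs were read from 46 to 122 BCs in wild-type replicate 1 and from 9 to 39 in all other replicates.

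The background sequence was inactive with and without CpGs. Activity of Pwp2_BackGr was 2.38%, 1.65% and 2.06% of WT in wild-type cells, and with 37 added CpGs that of Pwp2_BackGrCG was 2.54%, 1.70% and 1.79%. In TKO cells they had 5.03%, 2.31% and 2.43%, and 5.07%, 2.40% and 3.0%. All 12 values were near the lowest measurable one. The difference between them, with minus without CpGs, was -0.02 (log2, 95% confidence interval -0.49 to 0.45, adjusted p = 0.910, limma) in wild-type and 0.12 (-0.21 to 0.46, adjusted p = 0.367) in TKO cells, and no change was detectable.

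Motifs without added CpGs were close to the same level. Pwp2_allMotifs was at 2.65%, 1.85% and 2.16% in wild-type and 6.36%, 2.87% and 2.47% in TKO cells, and Pwp2_allImpMotifs at 2.58%, 1.75% and 1.90% and at 6.48%, 2.72% and 3.11%. Each of these values was near the lowest measurable one as well. Against Pwp2_BackGr, Pwp2_allMotifs differed by 0.13 (95% confidence interval -0.32 to 0.58, adjusted p = 0.554, limma) in wild-type and by 0.22 (-0.13 to 0.58, adjusted p = 0.162) in TKO cells. For Pwp2_allImpMotifs the difference was 0.03 (-0.43 to 0.49, adjusted p = 0.910) in wild-type cells. In TKO cells it was 0.32 ± 0.09 (SE, adjusted p = 0.0431), a call that was lost without any one of the replicates, at 0.30 to 0.36.

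The construct with all motifs and CpGs was the most active of the 6 in both cell lines. Pwp2_allMotifsCG had 6.94%, 4.82% and 5.65% of WT in wild-type cells, above all values of the other 5 constructs, and 23.2%, 6.49% and 8.74% in TKO cells, the highest of the 6 in each replicate. It was higher than Pwp2_allMotifs, its counterpart without added CpGs, by 1.39 ± 0.10 (SE, log2, n = 3, adjusted p = 0.000814, limma) in wild-type and by 1.62 ± 0.27 (adjusted p = 5.12e-05) in TKO cells. Of all constructs of the library, 75.8% and 65.6% were higher than Pwp2_allMotifs in these fits. Over Pwp2_BackGrCG, at 40 against 39 CpGs, it was higher by 1.54 ± 0.16 (adjusted p = 0.000638) and 1.72 ± 0.21 (adjusted p = 0.00417), where 78.8% and 71.9% of all constructs were higher than Pwp2_BackGrCG. Since Pwp2_allMotifs was near the lowest measurable value, the difference from it is understated.

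The construct Pwp2_allImpMotifsCG was weaker. Its activity was 3.70%, 2.78% and 2.47% of WT in wild-type and 6.53%, 3.21% and 3.09% in TKO cells, with 2 of the 3 TKO replicates near the lowest measurable value. It was higher than Pwp2_allImpMotifs, its counterpart without added CpGs, by 0.52 ± 0.15 (SE, log2, adjusted p = 0.0310, limma) in wild-type cells, and without any one of the replicates the change of 0.45 to 0.59 no longer passed the test. In TKO cells the difference was 0.08 (95% confidence interval -0.28 to 0.44, adjusted p = 0.556). The shares of all constructs above Pwp2_allImpMotifs were 78.8% and 65.6%. Over Pwp2_BackGrCG it was higher by 0.57 ± 0.16 (adjusted p = 0.0239) in wild-type cells, a call that was lost without replicate 1 (0.59, adjusted p = 0.0768) or replicate 3 (0.63, adjusted p = 0.0863), and by 0.28 (-0.16 to 0.71, adjusted p = 0.179) in TKO cells. Against Pwp2_BackGr, 2 of the other 5 constructs were higher in wild-type cells and 3 in TKO cells, where 78.8% and 81.2% of all constructs were. Pwp2_allMotifsCG and Pwp2_allImpMotifsCG were higher in both cell lines, the latter by 0.55 (adjusted p = 0.0447, limma) in wild-type and 0.40 (adjusted p = 0.0232) in TKO cells, and Pwp2_allImpMotifs was higher in TKO cells.

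The difference between the constructs with and without added CpGs was then compared with and without motifs. In wild-type cells it was larger in Pwp2_allMotifs than in Pwp2_BackGr by 1.41 ± 0.16 (log2, SD, n = 3) and in Pwp2_allImpMotifs by 0.54 ± 0.10, in 3 of 3 replicates each (exact sign-flip test, two-sided p = 0.25, the smallest possible). In TKO cells the difference was 1.5 ± 0.37 for Pwp2_allMotifs (exact sign-flip test, p = 0.25) and -0.04 ± 0.25 for Pwp2_allImpMotifs (p = 0.75). Pwp2_allMotifs received 26 CpGs and Pwp2_BackGr 37. Pwp2_BackGr and Pwp2_BackGrCG were near the lowest measurable value in every replicate, so that a change between them below that value could not be seen. Pwp2_allMotifs and Pwp2_allImpMotifs were near it as well, and the size of the differences given here is limited by it.

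All 6 constructs remained far below the native promoter. In wild-type cells 6 of 6 were lower than WT, from -5.66 to -4.12 (log2), where 87.9% of all 33 constructs tested were lower, and in TKO cells 6 of 6 were lower, from -5.04 to -3.19, where 62.5% of 32 were. Pwp2_allMotifsCG, the highest, was lower than WT by -4.12 ± 0.34 (SE, adjusted p = 3.43e-18, limma) in wild-type and by -3.19 ± 0.53 (adjusted p = 1.65e-07) in TKO cells. Between the cell lines, none of the 6 differed relative to WT, at 0.45 to 0.93 higher in TKO cells with adjusted p from 0.585 to 0.625, and 0 had an unadjusted p under 0.05, while 3.12% of the 32 constructs tested were higher in TKO cells. Relative to the median construct, which shifted these differences by -0.62, Pwp2_BackGr (-0.01) and Pwp2_allImpMotifsCG (-0.17) changed sign. The intervals were wide, for Pwp2_allMotifsCG from -0.27 to 2.14. Pwp2_BackGr, Pwp2_BackGrCG, Pwp2_allMotifs and Pwp2_allImpMotifs were near the lowest measurable value in every replicate of both lines. Their ratio to WT therefore mainly follows the activity of WT. That activity was 2.40, 3.49 and 3.04 in wild-type and 0.994, 2.25 and 2.06 in TKO cells. For these constructs the test could hardly show a difference between the lines. Relative to Pwp2_allMotifs, a comparison added after the values had been seen that does not use the WT construct, Pwp2_allMotifsCG differed between the lines by 0.24 (95% confidence interval -0.40 to 0.87, adjusted p = 0.727, limma).

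Pwp2_BackGr was measured in more than 1 library and its values can be set side by side in percent of each library's own WT, with no test between libraries. They were 2.38%, 1.65% and 2.06% in the motif library, 6.74%, 4.34% and 5.0% in the library of allmut constructs, and 5.79%, 5.24% and 7.80% in the library of 10-bp mutants, in wild-type cells. In all 9 samples the activity was near the lowest measurable value, so that these percentages mainly follow the activity of the WT construct they are divided by.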

How the data were processed

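TrAC-seq data of the Pwp2lib5 and Pwp2lib3 libraries in wild-type and TKO ESCs were used, with samples grouped by library, cell line and replicate as the labels give them. The authors scaled RNA and DNA reads of BCs to the smaller total, kept BCs with more than 20 DNA reads, added a pseudocount of 0.05 and deposited the geometric mean per construct as a ratio, together with the ratio to the WT construct. They also deposited the G+C content as a percent of bases, the OE ratio and the numbers of BCs and CpGs. The authors matched reads to designs with Bowtie or, for mutant promoters, by string distance. Tool versions: not given in the sources used here. Read totals are unknown, and precision is known only from the BCs and the spread between replicates.

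Here log2 activities relative to a reference construct were fitted in limma (version 3.58.1, R version 4.3.3) over all constructs of a library with at least 3 BCs (Pwp2lib5) or 1 BC (Pwp2lib3) in at least 2 replicates, adjusted by Benjamini-Hochberg, and an adjusted p under 0.05 was called. The noise of a reference construct is common to all values relative to it, which these p-values do not model. Variance was shared over constructs by limma. In the fits against allmut, and in Pwp2lib3 against WT, it was pooled completely. Very small p-values from 3 replicates rest on this pooling and not on the spread of a single construct. Slopes and correlations were computed in Python 3.11.15 with numpy 2.4.6, pandas 2.3.3 and scipy 1.17.1. The limma fit was tested on simulated data with independent noise. That test does not cover the shared noise of a reference construct. Coordinates are 1-based on mm9 with the GENCODE M1 annotation. The constructs named are all 17 constructs, the WT constructs and the native constructs with the fewest and the most CpGs, and others were named after their values were seen. The constructs, lists and tests were chosen with earlier results of these data known.

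Replicate numbers are shared between the cell lines. Deviations of same-numbered replicates correlated at 0.28, 0.37 and 0.12 over 33 constructs in Pwp2lib3. The main fits between the cell lines held no replicate block in either library, so that their p-values are unpaired. Alternatives were the BC minimum, low values left out, each replicate left out, weights by BCs, the replicate block and the median construct as reference, and, added after the values were seen, all pairs of Pwp2lib5 constructs and other references for the cell lines in Pwp2lib3. The sequences of the constructs themselves were not used here.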

Additional observations from a re-analysis of the deposited data

Results flagged for a closer look

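The construct allmut_CG_10 differed between the cell lines, by -1.44 (log2, TKO minus wild-type) relative to WT and by -1.38 relative to allmut, with adjusted p = 6.33e-05 and 3.64e-05 (limma). Its replicates in percent of WT did not overlap between the cell lines, and its TKO values rest on 3, 5 and 5 BCs. Relative to allmut the call was lost with weights by BCs (-1.02, adjusted p = 0.217) and without replicate 2 (-0.99, adjusted p = 0.0536), and relative to WT it was -1.39 with weights by BCs (adjusted p = 0.0138). With at least 10 BCs the construct could not be tested.

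The order of allmut_CG_10 and allmut_CG_10.1, which both hold 29 CpGs, was opposite in the cell lines. In wild-type cells allmut_CG_10.1 was lower by -0.59 ± 0.36 (log2, SD, n = 3) and in TKO cells it was higher by 0.42 ± 0.07, each in 3 of 3 replicates, and the difference between the lines was 1.01 (exact permutation test, two-sided p = 0.1, the smallest possible).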

How the results depend on the processing

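Of 741 values recomputed under alternatives, 701 kept their side of the threshold or stayed near the value reported, and 0 called values turned direction. With at least 10 BCs, 4 allmut constructs remained testable against WT in wild-type and 1 in TKO cells, all 4 and 1 lower. Against allmut 3 of 3 were higher in wild-type cells and 0 could be tested in TKO cells, and between the cell lines 0 were called relative to WT (1 tested) or to allmut (0 tested). Without values near the lowest measurable one, 2 motif library constructs in wild-type and 1 in TKO cells were lower than WT, being those left to test. Comparisons with allmut, Pwp2_BackGr, Pwp2_BackGrCG, Pwp2_allMotifs or Pwp2_allImpMotifs could not be run on such values, since these references are themselves near it. In the difference between the cell lines of the allmut constructs, 3 were called relative to the median construct in place of WT (allmut_CG_10, and higher in TKO cells allmut_CG_4.2 at 0.85 and allmutallCGadded at 0.67, adjusted p = 0.0232 each), and 0 relative to allmut with weights by BCs. Leaving out a replicate gave 1 to 2 calls relative to WT and 0 to 2 relative to allmut. Without replicate 2, allmut_CG_4.1 was called relative to WT (-1.33, adjusted p = 0.00968, limma), and without replicate 1, allmut_CG_4.2 was (0.86, adjusted p = 0.0328), as was allmut_CG_16.2 relative to allmut (-0.88, adjusted p = 0.0439). Of the allmut pairs with equal CpG numbers in TKO cells, 1 to 4 were called without a replicate, 1 without replicate 2. In the motif library the same step gave 0.45 to 0.59 for Pwp2_allImpMotifsCG against Pwp2_allImpMotifs and 0.50 to 0.63 against Pwp2_BackGrCG in wild-type cells, and 0.30 to 0.36 for Pwp2_allImpMotifs against Pwp2_BackGr in TKO cells. The correlation with OE in TKO cells was 0.83 as Pearson's r, 0.68 without allmut and 0.71 without values near the lowest measurable one, and the slope difference between contexts in TKO cells was 0.0462 without the constructs with 39 CpGs. The causes of these shifts were not tested, apart from the fewer constructs or samples named.

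With the replicate number as a block, the count between cell lines was 1 for the allmut constructs and 0 for those of the motif library, and the block changed no other call. Same-numbered replicates of Pwp2lib5 correlated at -0.43, -0.37 and -0.0055 over 22 constructs. The main fits did not take the numbers to pair samples in either library. The few BCs per construct in TKO cells and the lowest measurable activity limit the differences that could be seen between weak constructs.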
